A study of Mus musculus with 12 samples.

Results

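The genes examined were Folr1, Steap1, Slc31a1, Slc39a4, Slc2a12 and Slc37a2, which encode proteins that carry or reduce folate, metals and sugars. They are 6 of the 27833 genes listed in a table of hippocampal RNA-seq, and they were picked by name with their lower values in pyrroloquinoline quinone (PQQ)-treated mice already known. Their differences from the control group are therefore given as a description, with no p-value for any of the 6 genes. Counts of the 6 genes past the thresholds of the study are a description too. All mice were wild-type male C57BL/6J animals aged 20 months, so no young group stands beside them. The control group (CON, 3 libraries) received normal saline, the PQQ-L group (5 libraries) received 5 mg/kg/day of PQQ and the PQQ-H group (4 libraries) received 10 mg/kg/day, in each case by oral gavage for 14 days. PQQ is a bacterial redox cofactor, and the study asked whether it eases cognitive decline in aged mice by way of mitochondria and energy metabolism in the hippocampus. Levels are given as FPKM, fragments scaled to gene length and library depth, and the reads behind them could be recovered.

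In the brain, folate, metals and sugars enter mainly at the blood vessels and at the choroid plexus, the folded epithelium of the ventricles that makes cerebrospinal fluid. Folr1 (folate receptor alpha) is a membrane-anchored receptor through which this epithelium moves folate into the cerebrospinal fluid, and loss of the human gene causes cerebral folate deficiency. Slc31a1 (CTR1) is the high-affinity copper importer of most cells, Slc39a4 (ZIP4) imports zinc and is best known from the intestine, and Steap1 is a heme-containing membrane protein whose relatives Steap2, Steap3 and Steap4 reduce iron and copper ahead of uptake. Slc2a12 (GLUT12) is a glucose transporter of the plasma membrane. Slc37a2 exchanges glucose 6-phosphate for phosphate in the endoplasmic reticulum, so it handles sugar inside the cell and is not an uptake protein of the cell surface.

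The libraries differed in striatal and hippocampal transcripts in ways that the groups do not describe. In the sum of choroid plexus transcripts they differed between the groups. The summed FPKM of 9 genes typical of the striatum was 1307 to 3268 in a set of 4 libraries (CON 1 and CON 3 with PQQ-H 1 and PQQ-H 2) and 37.1 to 176 in the other 8 libraries. The sum of 8 genes of hippocampal neurons was 32.7 to 82.4 in those 4 libraries and 132 to 357 in the other 8. Over 22 choroid plexus genes that include none of the 6 genes, the summed FPKM was 1812 to 6005 in CON, 109 to 208 in PQQ-L and 83.3 to 99.9 in PQQ-H. Most of the CON sum came from Ttr and Enpp2, at 1499 and 236 FPKM in CON 2 and 5315 and 486 in CON 3. Kl, Prlr and Trpm3, also among the 22, overlapped between CON and both treated groups. In CON 1 these 3 were at their lowest of all 12 libraries (0.750, 0.0342 and 0.703 FPKM). None of these 22 genes was at 0 in every library of a group. In RNA from whole tissue, fewer cells of a type and less RNA per cell cannot be told apart. The depth ran from 29654553 to 38179496 reads on genes.

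The 6 genes lie on 6 chromosomes. By symbol they were matched to GENCODE M21 on GRCm38, since the deposited table gives symbols and no coordinates, and all are protein-coding. Folr1 lies on chromosome 7 from 101858331 to 101870788 on the minus strand and Steap1 on chromosome 5 from 5736317 to 5749326 on the minus strand. Slc31a1 spans 62360727 to 62391769 of chromosome 4 on the plus strand, and Slc39a4 spans 76612383 to 76617384 of chromosome 15 on the minus strand. Slc2a12 spans 22645011 to 22704285 of chromosome 10 (plus strand), and Slc37a2 spans 37227585 to 37255738 of chromosome 9 (minus strand). An exon of Tbpl1 on the opposite strand covers 407 exonic bases of Slc2a12, and one of Gm48081 covers 241 of Slc37a2. The sources used here do not state whether strand was used in counting, so reads in these stretches cannot be assigned. For Slc2a12 the FPKM imply a gene length of 8556 bases against 4237 exonic bases in GENCODE M21. The same reads would give a higher FPKM over the shorter model. For Slc37a2 the FPKM imply 4111 against 6643, and the same reads would give a lower FPKM over the longer model. Reads were not counted again, and their number could differ between the models.

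Promoters of 4 of the 6 genes were matched in RefSeq (GRCm38.p6), each with 250 bases before and 50 after the start of the gene, and they are shown because the 4 genes were lower in the same libraries while their promoters differ in base composition. They are written 5′ to 3′ on the strand of the gene, and capitals mark each CG pair, the usual site of DNA methylation.
Steap1, chr5:5749268-5749567, minus strand: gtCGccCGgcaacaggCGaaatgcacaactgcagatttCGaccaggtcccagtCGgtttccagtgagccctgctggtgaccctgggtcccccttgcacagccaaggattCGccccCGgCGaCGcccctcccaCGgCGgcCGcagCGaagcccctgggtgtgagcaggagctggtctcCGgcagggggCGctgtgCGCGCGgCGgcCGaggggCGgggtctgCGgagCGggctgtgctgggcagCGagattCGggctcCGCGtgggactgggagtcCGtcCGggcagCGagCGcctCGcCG
Slc31a1, chr4:62360451-62360750, plus strand: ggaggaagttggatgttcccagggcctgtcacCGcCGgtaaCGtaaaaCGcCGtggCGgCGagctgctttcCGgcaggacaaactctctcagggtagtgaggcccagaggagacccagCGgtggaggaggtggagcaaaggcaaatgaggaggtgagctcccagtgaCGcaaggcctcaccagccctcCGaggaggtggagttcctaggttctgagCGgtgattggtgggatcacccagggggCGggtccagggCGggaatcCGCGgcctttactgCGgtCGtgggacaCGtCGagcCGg
Slc2a12, chr10:22644761-22645060, plus strand: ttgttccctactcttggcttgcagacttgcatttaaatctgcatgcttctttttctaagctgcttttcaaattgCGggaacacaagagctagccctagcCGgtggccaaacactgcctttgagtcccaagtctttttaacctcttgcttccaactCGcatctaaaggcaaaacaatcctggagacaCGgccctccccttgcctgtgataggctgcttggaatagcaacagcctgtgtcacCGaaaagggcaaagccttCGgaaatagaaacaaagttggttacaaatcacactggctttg
Slc37a2, chr9:37255689-37255988, minus strand: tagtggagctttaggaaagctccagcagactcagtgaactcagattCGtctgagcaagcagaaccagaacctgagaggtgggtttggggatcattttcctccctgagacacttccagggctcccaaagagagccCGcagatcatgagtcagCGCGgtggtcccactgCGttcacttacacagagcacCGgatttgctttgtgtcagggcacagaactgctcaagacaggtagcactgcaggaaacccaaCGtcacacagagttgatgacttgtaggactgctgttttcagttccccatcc

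The promoter of Steap1 holds 33 CG pairs, more than 91.4% of all 32851 promoters in that table, and the promoter of Slc31a1 holds 21, more than 75.2%. Those of Slc2a12 and Slc37a2 hold 6 and 7, near the median of 7. The core of the site bound by OTX2, a homeobox factor of the choroid plexus (TAATCC, either strand), is in 7.06% of all these promoters and in none of the 4. The pattern TGCNCNC (N for any base, either strand) is in 51.0% of all promoters. It is looser than the core of the metal response element, TGCRCNC with R for A or G, read by the zinc-sensing factor MTF1. Among the 4 promoters the looser pattern occurs in Steap1 only, with 2 matches that do not overlap, starting at bases 159 and 193 of the printed window. The match at base 193 (TGCGCGC) has the G that the core allows. That at base 159 (TGCTCAC on the other strand) has a T there and is not a match to the core. How many of all promoters hold the stricter core was not counted.

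Folr1 had the highest mean level of the 6 genes in CON and the lowest in PQQ-H. Its FPKM was 14.8, 6.63 and 25.4 in CON 1 to 3, and 0.403, 1.19, 1.55, 0.501 and 0.197 in PQQ-L 1 to 5. In PQQ-H 1 to 4 it was 0.0737, 0.176, 0.147 and 0. Every CON library was above every PQQ-treated library, and every PQQ-H library was below every PQQ-L library. Means were 15.6 ± 9.42 for CON (SD, n = 3), 0.769 ± 0.575 for PQQ-L (SD, n = 5) and 0.0992 ± 0.0789 for PQQ-H (SD, n = 4). The CON mean was 20.3-fold that of PQQ-L and 157-fold that of PQQ-H, with a log2FC of -4.25 ± 0.593 at the lower dose and -6.20 ± 0.620 at the higher (± standard error). These log2FC are differences of log2(FPKM + 0.1) from limma, which understate the change of a gene at a low level. The counts were 379 to 1642 reads in CON, 13 to 107 in PQQ-L and 0 to 11 in PQQ-H. A count of 0 in PQQ-H 4 allows up to 3 reads, or an FPKM of 0.0455.

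Among the genes of metal uptake, Steap1 showed the same separation from CON without an order between the doses. Its FPKM was 5.81, 2.47 and 9.99 in CON 1 to 3, 0, 0.0215, 0.505, 0.140 and 0.0723 in PQQ-L 1 to 5, and 0.0468, 0.0762, 0.0700 and 0.529 in PQQ-H 1 to 4. Both PQQ-treated groups lay below CON, and within each of them 1 library was above the others, PQQ-L 3 and PQQ-H 4 with 22 reads each against at most 6 in the remaining 7. The CON mean of 6.09 ± 3.77 (SD, n = 3) was 41.2-fold that of PQQ-L (0.148 ± 0.207, SD, n = 5) and 33.7-fold that of PQQ-H (0.181 ± 0.233, SD, n = 4). The log2FC was -4.76 ± 0.668 at the lower dose and -4.54 ± 0.698 at the higher (± standard error).

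Slc31a1, the copper importer, stayed at a substantial level in all libraries, with 514 to 2002 reads each. Its FPKM was 11.3, 9.29 and 15.9 in CON 1 to 3, 6.49, 5.19, 7.90, 5.77 and 5.46 in PQQ-L 1 to 5, and 4.80, 5.87, 4.91 and 3.99 in PQQ-H 1 to 4. The groups did not overlap with CON, but the lowest CON library was only 1.18-fold the highest PQQ-treated library. Means were 12.2 ± 3.38 for CON (SD, n = 3), 6.16 ± 1.09 for PQQ-L (SD, n = 5) and 4.89 ± 0.770 for PQQ-H (SD, n = 4), and the log2FC was -0.95 (standard error 0.186) and -1.27 (standard error 0.195). As a difference in mean FPKM from CON, Slc31a1 was at -6.01 at the lower dose and -7.27 at the higher. Steap1 was at -5.94 and -5.91, from a lower CON level.

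Slc39a4, the zinc importer, was a low gene throughout. Its FPKM was 1.55, 0.882 and 2.09 in CON 1 to 3, 0.202, 0.400, 0.254, 0.444 and 0.298 in PQQ-L 1 to 5, and 0.0930, 0.235, 0.113 and 0.106 in PQQ-H 1 to 4. All treated libraries were below all CON libraries, and of the PQQ-H libraries only PQQ-H 2 reached into the range of PQQ-L. The values rest on 72 to 193 reads in CON, 20 to 43 in PQQ-L and 9 to 21 in PQQ-H. The CON mean of 1.51 ± 0.607 (SD, n = 3) was 4.73-fold that of PQQ-L (0.319 ± 0.101, SD, n = 5) and 11.02-fold that of PQQ-H (0.137 ± 0.0662, SD, n = 4), with a log2FC of -1.90 (standard error 0.315) and -2.72 (standard error 0.329).

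The sugar transporters were also lower in every PQQ-treated library than in any CON library. Slc2a12 had an FPKM of 1.87, 1.51 and 3.03 in CON 1 to 3, 0.361, 0.272, 1.13, 0.369 and 0.408 in PQQ-L 1 to 5, and 0.253, 0.281, 0.295 and 0.226 in PQQ-H 1 to 4. PQQ-L 3, with 347 reads, stood close to CON, while the other PQQ-L libraries had 89 to 119 reads. Means of Slc2a12 were 2.14 ± 0.797 for CON (SD, n = 3), 0.508 ± 0.353 for PQQ-L (SD, n = 5) and 0.264 ± 0.0310 for PQQ-H (SD, n = 4), and the log2FC was -1.97 (standard error 0.355) and -2.57 (standard error 0.372). Slc37a2 had an FPKM of 1.60, 1.23 and 1.98 in CON 1 to 3, 0.561, 0.580, 0.863, 0.705 and 0.527 in PQQ-L 1 to 5, and 0.623, 0.924, 0.608 and 0.612 in PQQ-H 1 to 4. Both doses gave nearly the same level of Slc37a2. Its means were 1.60 ± 0.373 for CON (SD, n = 3), 0.647 ± 0.138 for PQQ-L (SD, n = 5) and 0.691 ± 0.155 for PQQ-H (SD, n = 4), with a log2FC of -1.18 (standard error 0.209) and -1.10 (standard error 0.218).

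**Figure D1:**
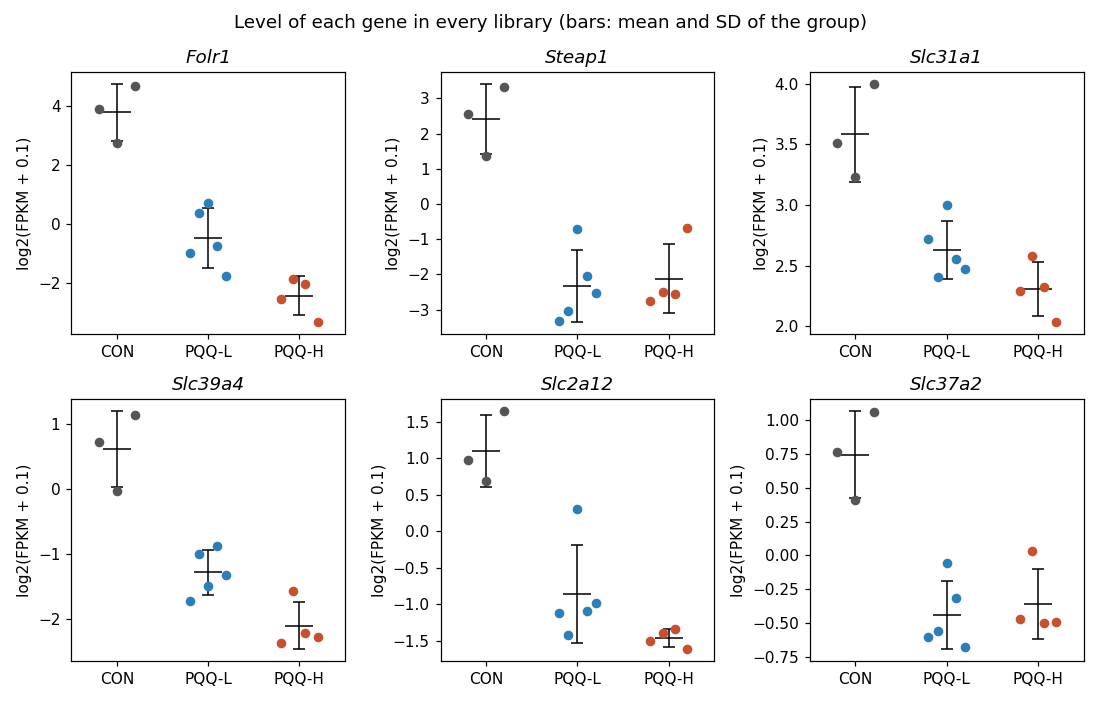
Level of each of the 6 genes, as log2(FPKM + 0.1), in each library of CON, PQQ-L and PQQ-H, with the mean and SD of the group; the vertical scale differs between panels. For each gene all 3 CON points lie above all 9 points of the PQQ-treated groups, and only for Folr1 do all PQQ-H points lie below all PQQ-L points.

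In PQQ-L, 5 of the 6 genes passed the thresholds of the study (|log2FC| above 1 and adjusted p below 0.05), against 0.471% of the 13796 genes tested that were called lower, and in PQQ-H 6 of 6 did, against 0.819%. Since the genes were picked for these comparisons, nothing follows from these shares, nor from how the counts below change between fits. The libraries did not overlap with CON for 6 of 6 genes in both comparisons, while 7.66% of all genes tested lay wholly below CON in PQQ-L and 5.72% in PQQ-H, and 10.6% and 7.08% lay wholly below or wholly above it. The 6 genes had a median log2FC of -1.93 for PQQ-L and -2.65 for PQQ-H, and over all genes tested it was -0.03 in both. The 2 comparisons share the same 3 CON libraries. Leaving out CON 1 or CON 3 brought the number past the thresholds to 0 in PQQ-L, and to 3 and 2 in PQQ-H, where Slc39a4 was no longer tested, though the log2FC of each gene still tested was negative. In PQQ-L the number was also 2 without PQQ-L 1 or PQQ-L 5, and 3 without PQQ-L 2, PQQ-L 4 or PQQ-H 4. With quality weights per library it was 0 for PQQ-L and 2 for PQQ-H. In PQQ-L it was 2 with the letter of the library name or a striatal score as a covariate, and 3 with pseudocount 1 or with only the groups compared.

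The sizes of the differences set the genes apart from each other. Folr1 and Steap1 had log2FC beyond -4 in both comparisons, Slc39a4 and Slc2a12 lay between -1.90 and -2.72, and Slc31a1 and Slc37a2 between -0.95 and -1.27. These sizes depend on the pseudocount. At 1 in place of 0.1, the log2FC was -3.11 and -3.74 for Folr1, -2.49 and -2.45 for Steap1, -0.90 and -1.115 for Slc39a4, -1.05 and -1.28 for Slc2a12 and -0.65 and -0.61 for Slc37a2. At 0.01, Folr1 was at -4.48 and -7.59 and Steap1 at -6.18 and -5.44. By mean FPKM, which is per gene length, the order in CON was Folr1 (15.6), Slc31a1 (12.2), Steap1 (6.09), Slc2a12 (2.14), Slc37a2 (1.60) and Slc39a4 (1.51), and the ranges of neighbors in this order overlapped in each case. In PQQ-H the order was Slc31a1 (4.89), Slc37a2 (0.691), Slc2a12 (0.264), Steap1 (0.181), Slc39a4 (0.137) and Folr1 (0.0992). There, Slc31a1 lay above Slc37a2 and Slc37a2 above Slc2a12 in every library, while the later neighbors overlapped. The order depends on the gene lengths. With the same reads rescaled to GENCODE M21 exonic bases, Slc2a12 (0.533) was above Slc37a2 (0.428) in PQQ-H, and Slc39a4 (1.34) above Slc37a2 (0.991) in CON. A new count of reads on that annotation, which was not made, could give other values.

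**Figure D2:**
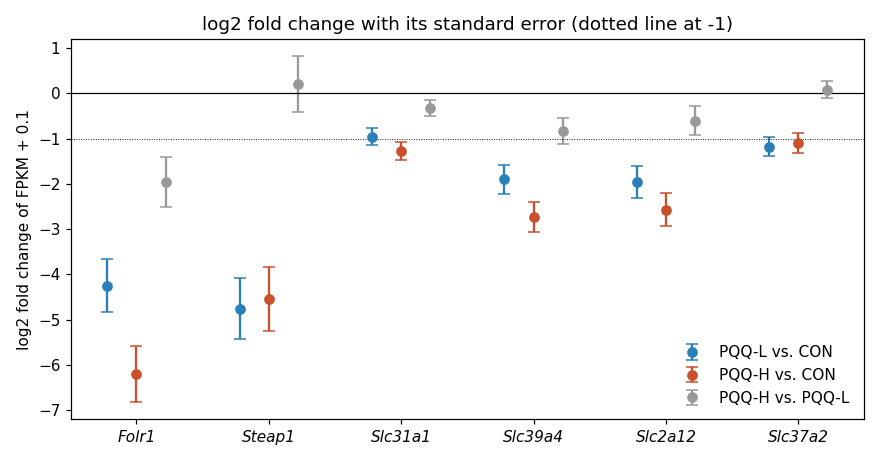
log2FC of log2(FPKM + 0.1) for each of the 6 genes, for both doses against CON and for PQQ-H vs. PQQ-L, with bars of 1 standard error. Folr1 reaches -6.20 in PQQ-H vs. CON, and the values of PQQ-H vs. PQQ-L run from -1.95 for Folr1 to 0.21 for Steap1.

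The comparison of the doses was not used to pick the genes and was tested. Over the 9 treated libraries alone, 4 of the 6 genes (Folr1, Steap1, Slc39a4 and Slc2a12) averaged 0.162 to 0.471 FPKM, so they reached the level of 0.5 needed for the test only through CON, and their values between the doses rest on few reads. With limma, 0 of the 6 were called between the doses, as was so for 0% of all genes tested (0 of 13796), of which 635 (4.6%) were lower and 490 (3.55%) higher in PQQ-H at an unadjusted p below 0.05. Folr1 was lower in PQQ-H by a log2FC of -1.95 (95% interval -3.15 to -0.76, limma unadjusted p = 0.00399, adjusted p = 0.580), and it was the only one of the 6 whose dose groups did not overlap, where 3.33% of all genes had every PQQ-H library below every PQQ-L library and 4.76% did not overlap in either direction. Slc39a4 had a log2FC of -0.83 (95% interval -1.46 to -0.19, limma unadjusted p = 0.0150, adjusted p = 0.580). For Slc31a1 it was -0.32 (-0.70 to 0.05, limma adjusted p = 0.580) and for Slc2a12 it was -0.60 (-1.32 to 0.11, limma adjusted p = 0.580). The log2FC was 0.21 for Steap1 (-1.13 to 1.56, limma adjusted p = 0.891) and 0.08 for Slc37a2 (-0.34 to 0.50, limma adjusted p = 0.863). The interval for Slc37a2 is the narrowest next to that of Slc31a1, and that for Steap1 leaves a difference of more than 2-fold in either direction possible. Voom on the recovered reads, a test on counts, also called 0 genes between the doses.

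The levels were also compared separately in the libraries with many and with few striatal transcripts. For each of the 6 genes every CON library lay above every PQQ-treated library, so the same order had to appear in any part of the libraries. These splits therefore test nothing and show sizes only. Among the 4 libraries with many striatal transcripts, both CON libraries were above both PQQ-H libraries for 6 of 6 genes. There the lower CON value was 1.73-fold (Slc37a2) to 83.9-fold (Folr1) the higher PQQ-H value. Among the other 8 libraries, CON 2 was above the 7 PQQ-treated libraries for 6 of 6 genes, by 1.18-fold for Slc31a1 to 4.66-fold for Steap1 over the highest of them. The names of 7 libraries open with the letter L and those of 5 with R, letters that the sources used here do not explain. Within each letter, all PQQ-treated libraries were below all CON libraries for each of the 6 genes, an order fixed in the same way, and the R set holds 1 CON library.

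The choroid plexus genes were lower in the same groups as the 6 genes. Of the 20 choroid plexus genes tested, 15 were called lower and 0 higher in PQQ-L, and 17 lower and 0 higher in PQQ-H. Of all genes tested, 0.471% and 0.819% were called lower. The choroid plexus genes had a median log2FC of -3.04 and -3.91. All cell type lists used here were chosen with earlier results of these data known, so their counts are a description. The median of the 6 genes was smaller in size in both comparisons, and only Folr1 and Steap1 exceeded that of the choroid plexus genes. CON 2 was lowest and CON 3 highest within CON for 6 of 6 genes, as for 16 of the 20 choroid plexus genes and for 13.2% of all genes tested. Within PQQ-L, PQQ-L 3 was highest for 5 of 6 genes, and it also had the highest choroid plexus score of its group (-0.0353, the mean centred log2 level of the 22 genes, with a group range from -0.839), though the summed FPKM of these genes was highest in PQQ-L 4. Not all values kept to this order, since Slc39a4 was second lowest of its group in PQQ-L 3, and Steap1 was highest of all treated libraries in PQQ-H 4, whose score was -1.32. With this score as a covariate, the log2FC against CON was above 0 for 4 of the 6 genes in PQQ-L and 4 in PQQ-H, with standard errors of up to 2.59, and 0 genes of the whole table passed the thresholds. The score runs from 1.97 to 3.26 in CON and from -1.39 to -0.0353 in the treated groups, so the score and the treatment cannot be told apart in this fit. Genes of other cells moved as well, with 5 of 9 ependymal genes and 2 of 9 meningeal genes called lower in PQQ-H and 0 of 9 and 1 of 9 in PQQ-L. Of the genes of microglia, astrocytes, oligodendrocytes, endothelium, border macrophages, blood, striatum and hippocampal neurons, 0 were called in either comparison, though only 1 of the 5 border macrophage genes was tested. In PQQ-L, 9 of 9 striatal genes had a negative log2FC (median -2.91, 1 at an unadjusted p below 0.05) and 8 of 8 genes of hippocampal neurons a positive one (median 1.82, 3 at an unadjusted p below 0.05). In PQQ-H the directions were the same for 9 of 9 and 8 of 8, with medians of -0.88 and 0.90. The part of these cell types in the levels of the 6 genes was not tested.

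**Figure D3:**
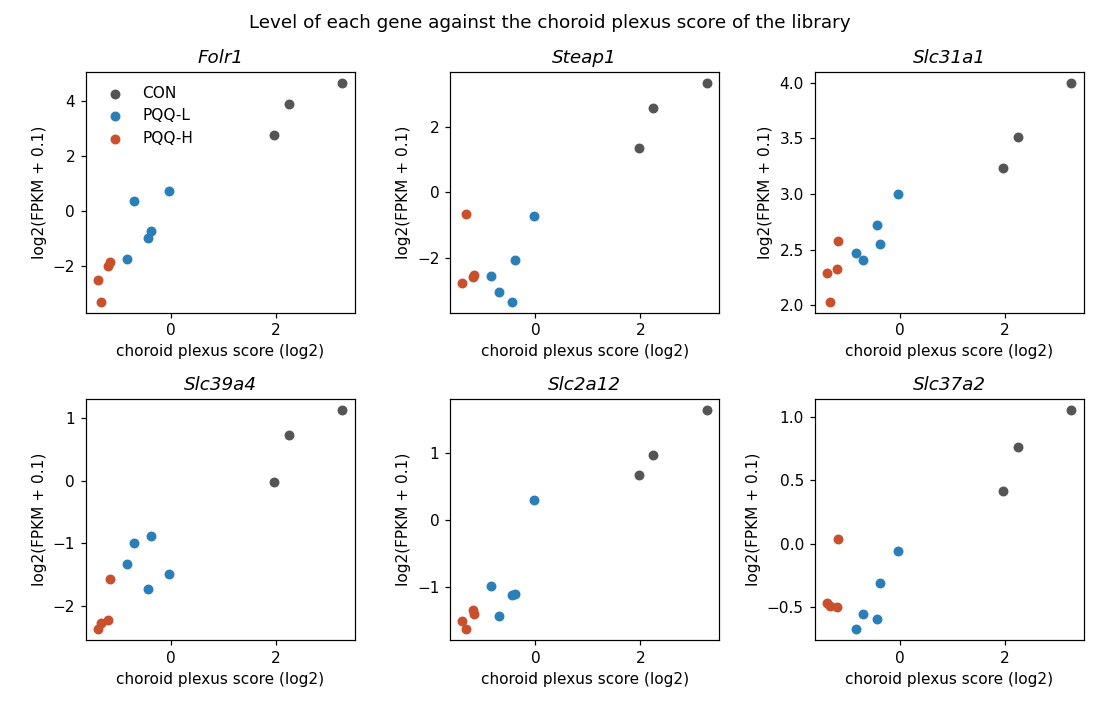
Level of each of the 6 genes, as log2(FPKM + 0.1), against the choroid plexus score of the library (the mean centred log2 level of 22 choroid plexus genes that include none of the 6), with 1 point per library. The 3 CON libraries sit at scores of 1.97 to 3.26 with the highest levels, and PQQ-H 4 stands above the other PQQ-H libraries for Steap1.

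The profiles most like those of the 6 genes were found by the root mean square difference of centred log2(FPKM + 0.1) over the 12 libraries. For Folr1 they were Ecrg4 (0.423), Krt8 (0.561) and Prr32 (0.636), against a median of 2.49 over all genes tested. For Steap1 they were Cldn3 (0.695), Cox8b (0.837) and Kcne2 (0.865), against a median of 2.19. Slc2a12 was nearest to Msx1 (0.350), Igfbp2 (0.353) and Cdkn1c (0.358), and Slc39a4 to Sema3b (0.378), Pcolce (0.405) and Gpx8 (0.409). Slc31a1 was nearest to Cab39l (0.108), Rab11fip1 (0.127) and Mdfic (0.160), and Slc37a2 to Bgn (0.177), Flvcr2 (0.178) and Fxyd1 (0.187). Of these 18 genes, 3 (Krt8, Kcne2 and Msx1) were matched by symbol to the choroid plexus list. Ecrg4 is on that list too, under an older symbol that was not matched and so is not among the 22 genes. None of the genes nearest to Slc31a1, Slc39a4 or Slc37a2 belongs to it. The median over all genes tested was 1.10 for Slc2a12, 1.11 for Slc39a4, 0.577 for Slc31a1 and 0.576 for Slc37a2. The differences are therefore not on 1 scale between the 6 genes. Cab39l, the nearest to Slc31a1, had an FPKM of 16.9 to 28.03 in CON, 9.47 to 14.7 in PQQ-L and 8.54 to 10.02 in PQQ-H.

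Other genes that handle folate, metals and sugars mostly did not pass the test. Of 107 such genes in 4 lists, 84 were tested, and with limma 0 were called in PQQ-L and 1, lower, in PQQ-H. At an unadjusted p below 0.05, 14 were lower and 6 higher in PQQ-L, against 11.6% and 8.92% of all genes tested. In PQQ-H 13 were lower and 0 higher, against 7.88% and 1.85%. Their median log2FC was -0.11 at the lower dose and -0.05 at the higher. Between the doses 0 of the 84 were called, with 2 lower and 5 higher at an unadjusted p below 0.05. The gene called in PQQ-H was Steap2, an iron and copper reductase that lies beside Steap1 on chromosome 5 (5664829 to 5694578, minus strand). Its FPKM averaged 2.14 ± 0.421 for CON (SD, n = 3), 0.906 ± 0.355 for PQQ-L (SD, n = 5) and 0.643 ± 0.157 for PQQ-H (SD, n = 4), and its CON libraries lay above all treated ones. At the higher dose the log2FC of Steap2 was -1.60 ± 0.296 (limma adjusted p = 0.0268), and at the lower dose it was -1.21 ± 0.283 (limma adjusted p = 0.0957). The call in PQQ-H was lost without CON 1, CON 3, PQQ-H 1, PQQ-H 3 or PQQ-H 4.

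Within the folate list 0 of 23 genes tested were called, with a median log2FC of -0.12 in both comparisons. The reduced folate carrier Slc19a1 averaged 4.54 ± 0.819 FPKM for CON (SD, n = 3), 3.17 ± 0.563 for PQQ-L (SD, n = 5) and 2.77 ± 0.555 for PQQ-H (SD, n = 4), and its CON libraries lay above all treated ones (limma adjusted p = 0.221 and 0.153). The proton-coupled carrier Slc46a1, which works with Folr1 in the choroid plexus, was at 5.29 ± 0.369 (SD, n = 3), 4.01 ± 0.416 (SD, n = 5) and 4.53 ± 0.496 (SD, n = 4), with a limma adjusted p of 0.161 and 0.576. For Slc46a1 the CON libraries lay above all PQQ-L libraries but overlapped with PQQ-H. Folr2, the folate receptor of macrophages, had 1 to 14 reads per library and was not tested.

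Of 24 iron and copper genes tested, 0 were called in PQQ-L and 1 in PQQ-H. Steap3, the endosomal iron reductase, averaged 1.23 ± 0.197 FPKM for CON (SD, n = 3), 1.55 ± 0.220 for PQQ-L (SD, n = 5) and 1.37 ± 0.245 for PQQ-H (SD, n = 4), and its log2FC was 0.31 and 0.13 (limma adjusted p = 0.272 and 0.851). Steap4, below the level needed for the test, had 27 to 59 reads in CON, 1 to 20 in PQQ-L and 2 to 10 in PQQ-H. Its CON libraries also lay above all treated ones, and it was called lower in both comparisons when all genes above 0 were tested. Slc31a2, the close relative of Slc31a1, was at 5.09 ± 1.23 (SD, n = 3), 3.90 ± 0.176 (SD, n = 5) and 4.14 ± 0.422 (SD, n = 4) FPKM, and its range in CON (3.68 to 5.97) overlapped with both treated groups.

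In the zinc list 0 of 23 genes were called in either comparison, and the median log2FC was 0.0023 at the lower dose and -0.02 at the higher. Slc39a10, the most abundant plasma membrane zinc importer after Slc39a1 among the relatives named here, averaged 9.58 ± 1.93 FPKM for CON (SD, n = 3), 11.4 ± 1.61 for PQQ-L (SD, n = 5) and 9.22 ± 0.910 for PQQ-H (SD, n = 4). Slc39a1 was at 17.9 ± 1.59 (SD, n = 3), 15.4 ± 0.610 (SD, n = 5) and 16.2 ± 2.74 (SD, n = 4), Slc39a14 had group means of 2.89 to 3.19 and Slc39a8, too low for the test, of 0.445 to 0.472. In the sugar list 0 of 14 genes were called. Slc2a1, the glucose transporter of the blood-brain barrier, averaged 60.0 ± 9.36 FPKM for CON (SD, n = 3), 45.7 ± 6.99 for PQQ-L (SD, n = 5) and 48.1 ± 12.7 for PQQ-H (SD, n = 4), and Slc2a3, the transporter of neurons, had group means of 21.9 to 24.3. Slc2a10, a close relative of Slc2a12, and Slc37a1 were too low for the test, with group means of 0.371 to 0.393 and 0.377 to 0.529. Slc37a3 and Slc37a4 had group means of 9.17 to 10.96 and 5.53 to 6.43.

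**Figure D4:**
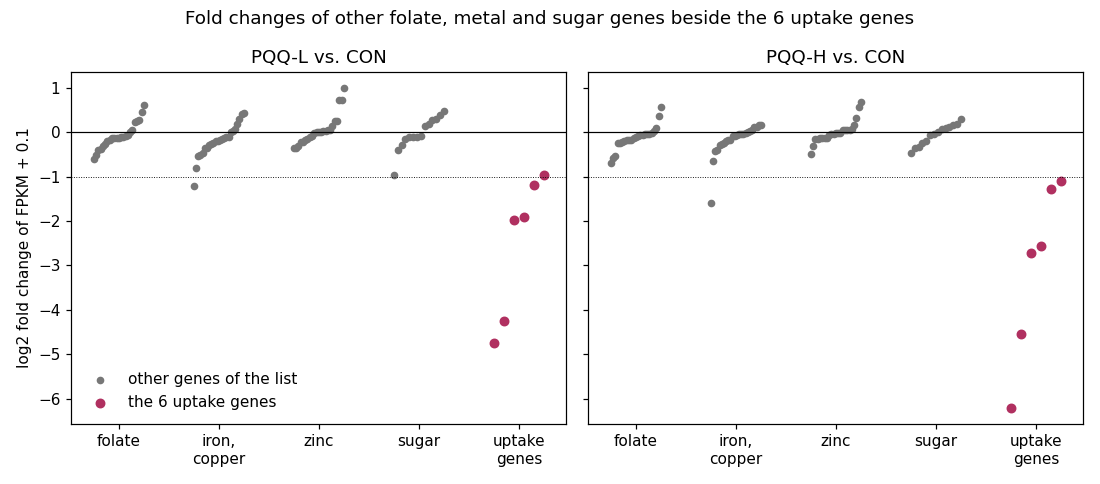
log2FC against CON of the tested genes of the folate, iron and copper, zinc and sugar lists and of the 6 uptake genes, with 1 point per gene. In PQQ-H vs. CON, Steap2 at -1.60 is the only gene of the 4 lists below -1, while the 6 genes lie between -6.20 and -1.10.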

How the data were processed

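RNA-seq of 12 hippocampal libraries was analyzed. The authors filtered reads with fastp, mapped them with HISAT2 (mm39 per the submitters' processing notes), counted them with HTSeq-count and deposited FPKM per gene. Versions and annotation are not given in the sources used here. Libraries were grouped by their titles, and columns were matched by library name. Whole reads were recovered from the ratios of FPKM between libraries (tolerance 0.02 reads, 100% of the 25563 genes above 0 in at least 2 libraries). A gene entered the test where its FPKM averaged 0.5 or more, and limma 3.58.1 (R 4.3.3) was fitted to log2(FPKM + 0.1) of the 12 libraries together, with trend and Benjamini-Hochberg adjustment, since the deposited unit is FPKM. On the recovered reads voom was run as an alternative, and DESeq2, used by the authors, was not run. Both the recovery and the fit were first tested on simulated data. There the recovery returned the true reads of 98.7% of genes, so some recovered counts may be wrong. The p-values measure the spread between these libraries, which the labels do not tie to single mice. No libraries of a group were duplicates (chi-square per degree of freedom of at least 18.8). The genes and the lists were chosen with earlier results of these data known. The genes named are the 6 genes, their relatives, called genes of the 4 pathway lists, the 3 genes of most similar profile for each and markers. The 24 alternatives comprised pseudocounts, filters, scaling, the samples in the fit, weights, covariates, a replicate block, voom and each library left out. A striatal score as covariate was chosen after seeing the data. Tables were made in Python 3.11.15 (pandas 2.3.3, numpy 2.4.6) and figures in matplotlib 3.10.9. Of the listed symbols, 21121 matched GENCODE M21. Counts cover counting error only, since no molecular identifiers are described.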

Additional observations from a re-analysis of the deposited data

Results flagged for a closer look

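In 5 cases 1 library lay apart from the others of its group by Dixon's test at 95%, out of 12 groups examined (6 genes in PQQ-L and PQQ-H, while CON with 3 libraries was too small). Chance alone marks about 1 in 20 groups where values are normal and groups are independent. Here FPKM were tested without logs and the 6 genes share the same libraries, so that rate need not hold. Steap1 was high in PQQ-L 3 (FPKM 0.505) and in PQQ-H 4 (0.529). Slc2a12 was also high in PQQ-L 3 (1.13), the library with the highest level of 5 of the 6 genes in its group. In PQQ-H 2, Slc39a4 (0.235) and Slc37a2 (0.924) stood above the other PQQ-H libraries, and PQQ-H 2 was the highest of its group for 4 of the 6 genes. In PQQ-H 4 the summed level of the choroid plexus genes was 88.6 FPKM, within the range of 83.3 to 99.9 of its group, and Folr1 had 0 reads there. Single genes of that list differed. Kl (13.95 FPKM), Sostdc1 (3.54) and Rdh5 (1.43) were highest of all treated libraries in PQQ-H 4, while Krt8, Kcne2 and Otx2 were at 0 there. The causes were not tested.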

How the results depend on the processing

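Over the alternatives, the log2FC of the 6 genes against CON was negative in 270 of 278 fits. All 8 exceptions came with the choroid plexus score as a covariate, where it was 0.37 for Folr1 in PQQ-L, 1.23 for Steap1 in PQQ-H, 0.88 and 1.04 for Slc31a1, 0.998 and 1.19 for Slc2a12, and 0.45 and 0.97 for Slc37a2 in PQQ-L and PQQ-H. With that covariate Steap2 was at 0.37, 0.41 and, between the doses, 0.0353, and between the doses Slc31a1 was at 0.16 and Slc2a12 at 0.19. Between the doses, leaving out 1 library gave -0.27 to 0.61 for Steap1 and -0.0473 to 0.18 for Slc37a2, which was -0.0464 with the striatal score. None of the 6 genes was called between the doses in any alternative, nor was any gene of the 4 lists (lowest adjusted p of the 6 genes 0.230). The 65 genes called in PQQ-L became 112 without a filter, 42 at a mean FPKM of at least 1, 17 with weights per library, 23 with a replicate block on the number in the title, 123 with voom on recovered reads, 0 with the choroid plexus score, 42 with the striatal score and 20 to 865 with 1 library left out (20 without CON 1, 865 without CON 2, 33 without CON 3, 43 without PQQ-L 1). The 113 in PQQ-H became 170, 68, 31, 48 with that block, 0 with the choroid plexus score, 44 with only the 2 groups compared and 47 to 153 with 1 library left out (58 without CON 1, 47 without CON 3, 68 without PQQ-H 3, 67 without PQQ-H 4). In the 4 lists the count in PQQ-L was 1 without a filter, 2 with voom and 0 to 2 with 1 library left out (2 without CON 2). That in PQQ-H was 2 without a filter, 0 with pseudocount 1, with only the 2 groups compared, with weights, with the replicate block or with the choroid plexus score, and 0 to 1 with 1 library left out. The deviations of same-numbered libraries correlated from -0.62 to 0.72 over 10 pairs, and those of libraries with different numbers from -0.765 to 0.785 over 37 pairs. No pairing by replicate number was seen, but with such wide ranges this check cannot exclude one. With the replicate block, the thresholds were passed by 2 of the 6 genes for PQQ-L and by 3 for PQQ-H. The causes were not tested. At a mean FPKM of at least 1, Slc39a4, Slc2a12 and Slc37a2 were not tested (2 of the other 3 genes passed the thresholds in PQQ-L and 3 in PQQ-H), nor was Slc39a4 without CON 1 or CON 3. At 0 to 22 reads, Steap1 in the treated groups and Folr1 in PQQ-H are limited by counting.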
